A study of Homo sapiens with 4 samples.

Results

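The AP-1 and immediate early genes were examined by RNA-seq in OCSCs treated with vehicle or the ERβ agonist LY500307. The group was set by gene symbol and held FOS, FOSB, FOSL1, FOSL2, JUN, JUNB, JUND, EGR1, ATF3 and IER3, 10 of the 23228 symbols in the count files. All 10 passed edgeR's filter on low counts, as did 14473 genes in all. The cells carried the label SKOV3, an established human ovarian cancer cell line, and were sorted for aldehyde dehydrogenase activity (ALDH+), a marker used to enrich cancer stem cells. After sorting they grew as spheroids in serum-free medium with 20 ng/mL EGF, 20 ng/mL bFGF, hydrocortisone and insulin. RNA was taken after 24 h with vehicle (2 samples) or with 5 µM LY500307 (2 samples), and both groups came from the same sorted line in the same medium. The comparison asks how the agonist altered the transcripts of these genes at that single time.

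AP-1 is a dimer of basic leucine zipper proteins, made of a JUN protein with a FOS, ATF or second JUN protein, that binds the sequence TGACTCA or TGAGTCA. FOS, FOSB, JUN, JUNB and EGR1 are classic immediate early genes. Growth factors such as EGF switch them on within minutes through the ERK pathway and serum response factor, without new protein synthesis, and their short-lived transcripts then decline. Estrogen receptors can also act without binding DNA themselves, by joining AP-1 at its sites, so the supply of AP-1 subunits is of interest where ERβ is activated.

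Between 28841701 and 34943882 reads per sample were counted on genes. The samples labelled LY500307 differed more from each other than the vehicle samples did (chi-square per degree of freedom between the gene counts 42.5 against 5.16), so each LY500307 sample is given separately. Markers went against the SKOV3 label. SKOV3 is known for keratins 7 and 19 and for amplified ERBB2. Here KRT7 and KRT19 had at most 2 reads in any sample, and 6 of 10 epithelial markers (KRT7, KRT19, CDH1, PAX8, WT1 and MUC16) had no more than 10 reads in every sample. The keratin KRT18 was present, at 23.5 to 31.8 CPM, whereas KRT8 had 9 to 33 reads per sample. The 10 summed to 284 to 294 CPM with vehicle and 283 to 330 CPM with LY500307, mostly EPCAM. ERBB2 was at 49.9 ± 1.66 CPM with vehicle (SD, n = 2). EPCAM was at 194 to 240 CPM. Of the blood cell markers, PTPRC had at most 4 reads, and the 7 genes summed to 14.0 to 15.5 CPM with vehicle and 13.8 to 19.4 CPM with LY500307. The 8 stromal and endothelial markers summed to 652 to 659 CPM with vehicle and 695 to 775 CPM with LY500307, mostly COL3A1 (440.3 to 517 CPM) and COL1A1. COL1A1 was at 182 and 190 CPM with vehicle and at 222 and 230 CPM with LY500307 (log2 fold change 0.28, adjusted p = 0.422, edgeR). DCN and LUM of the same list went the other way, with log2 fold changes of -0.20 and -0.10 (adjusted p = 0.634 and 0.776, edgeR). The groups did not overlap for 2 genes of this list that were higher and 2 that were lower with LY500307. The endothelial marker CDH5 had 0 or 1 read. The part of these markers in the results below was not tested. The identity of the cells was not tested, and they are called OCSCs as in the labels. In bulk RNA a change in the number of cells that express a gene and a change in RNA per cell cannot be told apart. Transcripts of the drug's receptor, ESR2, were at 7 to 12 reads per sample.

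The promoters of 4 of the genes are shown: JUN and JUND, the genes with the smallest p-values, FOS, whose groups overlapped fully, and EGR1, whose LY500307 replicates lay furthest apart. Each sequence is the 250 bases before the RefSeq start, 5′ to 3′ on the gene's strand, matched exactly to GRCh37, the assembly behind the authors' hg19. JUN (minus strand) is at chr1:59249720-59249969, JUND (minus strand) at chr19:18392433-18392682, FOS (plus strand) at chr14:75745281-75745530 and EGR1 (plus strand) at chr5:137800918-137801167. Capitals mark matches on either strand to the AP-1 site (TGACTCA or TGAGTCA), the cAMP response element TGACGTCA, its core TGACGT, the variant TGACATCA and the CArG box bound by serum response factor.
JUN: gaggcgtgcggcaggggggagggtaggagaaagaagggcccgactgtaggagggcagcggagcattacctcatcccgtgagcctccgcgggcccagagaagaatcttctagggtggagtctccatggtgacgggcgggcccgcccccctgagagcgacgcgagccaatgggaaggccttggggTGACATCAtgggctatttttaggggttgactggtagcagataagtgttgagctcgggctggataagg
JUND: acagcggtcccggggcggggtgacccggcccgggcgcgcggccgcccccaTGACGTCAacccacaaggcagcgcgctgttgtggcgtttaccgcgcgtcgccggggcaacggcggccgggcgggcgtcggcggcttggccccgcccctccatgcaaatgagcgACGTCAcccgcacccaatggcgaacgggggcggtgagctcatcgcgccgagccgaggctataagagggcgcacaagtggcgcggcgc
FOS: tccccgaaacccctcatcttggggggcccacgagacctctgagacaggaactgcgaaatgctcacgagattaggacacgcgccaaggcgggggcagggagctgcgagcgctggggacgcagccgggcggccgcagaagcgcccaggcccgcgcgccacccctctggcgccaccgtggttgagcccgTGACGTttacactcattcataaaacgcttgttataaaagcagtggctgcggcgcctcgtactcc
EGR1: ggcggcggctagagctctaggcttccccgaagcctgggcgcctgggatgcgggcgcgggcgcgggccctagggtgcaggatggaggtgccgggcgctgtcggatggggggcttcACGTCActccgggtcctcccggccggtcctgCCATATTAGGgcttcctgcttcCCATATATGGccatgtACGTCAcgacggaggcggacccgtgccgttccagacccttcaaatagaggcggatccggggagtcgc

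The JUN promoter held TGACATCA, whose last base lay 60 bases before the start, a sequence found in 2.45% of 27305 promoters of the same length. JUND held the full TGACGTCA with its last base 193 bases before the start, as did 1.77% of promoters, and a second core 82 bases before the start. FOS held 1 core at 59 bases and EGR1 held 2, at 131 and 62 bases. EGR1 also held 2 CArG boxes, at 96 and 74 bases, where 1.14% of promoters had at least 1. A single promoter window was found for 7 of the 10 genes, and the core TGACGT was present in 5 of them (FOS, FOSB, FOSL2, JUND and EGR1), against 7.42% of all promoters. Matches of TGACGTCA and TGACGT overlap, since the core lies in the longer sequence on both strands. The AP-1 site itself, which 4.16% of promoters held, and the full estrogen response element GGTCANNNTGACC, which 0.0439% held, were in 0 of the 7 windows. ATF3 was left out because it had 2 windows. These matches describe the letters in the windows and do not show binding. Sites outside the 250 bases were not searched, so the absence of a match holds for the window alone.

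Levels were compared between genes as RPKM, read counts scaled for library size and for the length of the canonical transcript. With vehicle, JUND, which binds DNA with either FOS or JUN partners and is typically present in resting cells, was the highest at 83.6 ± 0.0863 RPKM (SD, n = 2). EGR1, a zinc finger transcription factor, followed at 74.0 ± 5.40 RPKM, JUNB at 46.7 ± 0.666 RPKM and IER3, a small protein that modulates survival and ERK signalling, at 38.2 and 35.8 RPKM. The values of these 4 genes did not overlap in the vehicle samples. They were far above FOS at 7.86 ± 1.96 RPKM, FOSB at 6.79 ± 0.325 RPKM and FOSL1 at 6.25 ± 0.861 RPKM, whose values overlapped among themselves. ATF3, a stress-induced repressor and activator of the ATF family, was at 2.29 ± 0.0266 RPKM, FOSL2 at 2.01 ± 0.401 RPKM and JUN at 1.87 ± 0.361 RPKM. Values of FOSL2 overlapped with those of both ATF3 and JUN. With LY500307 the first 5 places were held by the same genes in the same order. EGR1 spread most there, from 52.7 to 78.8 RPKM, and its lower value lay close to JUNB at 49.2 and 50.3 RPKM. With the full annotated exon length in place of the canonical transcript, an alternative added after the data had been seen, FOSL1 moved from place 7 to place 5 and ATF3 from place 8 to place 10 with vehicle, and the first 4 places did not change.

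**Figure D1:**
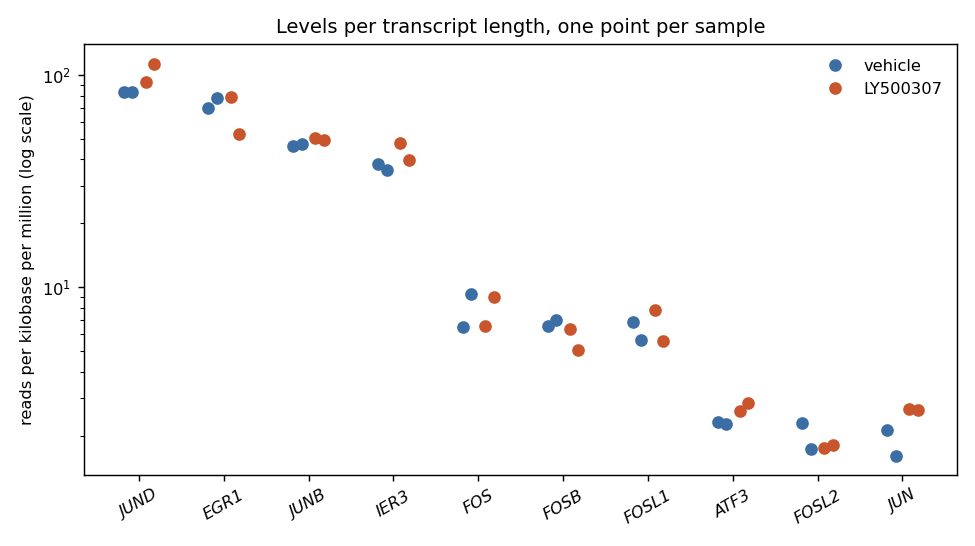
Level of each gene in RPKM (vertical axis, log scale) in the 2 vehicle samples (blue) and the 2 LY500307 samples (orange), ordered by the vehicle mean. JUND, EGR1, JUNB and IER3 lie between 35.8 and 113 RPKM in every sample, whereas the other 6 genes stay at or below 9.25 RPKM.

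Per length, transcripts of the JUN family outweighed those of the FOS family, and other AP-1 partners were not in these sums. The 3 JUN family genes summed to 132 and 132 RPKM with vehicle and to 145 and 165 RPKM with LY500307, and these sums did not overlap. The 4 FOS family genes summed to 22.2 and 23.6 RPKM with vehicle and to 22.4 and 21.4 RPKM with LY500307, which did overlap. Without the length scaling the FOS family sums did not overlap, at 65.4 and 67.1 CPM with vehicle and 62.6 and 59.5 CPM with LY500307. The ratio of JUN family to FOS family was 5.94 and 5.601 with vehicle and 6.49 and 7.71 with LY500307. These sums and ratios carry no GC correction, after which the log2 fold change was 0.07 for JUND and -0.05 for JUNB (edgeR). Among single genes, 48.6% of all tested had groups that did not overlap. JUND alone took 63.4% and 63.2% of the JUN family's RPKM with vehicle and 63.5% and 68.6% with LY500307. JUN took between 1.22% and 1.84%, so its difference between the groups, given next, altered the family sum little. Within the FOS family the shares of FOS differed more between replicates than between groups, from 29.2% to 39.1% with vehicle and from 29.2% to 42.0% with LY500307.

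Of the 10 genes, only JUN met the criteria used in the study, an unadjusted p below 0.05 with an absolute log2 fold change above 0.5. Among all genes tested 4.62% met them, 2.76% higher and 1.86% lower with LY500307. JUN had 207 and 149 reads with vehicle and 302 and 278 with LY500307, or 6.91, 5.24, 8.70 and 8.60 CPM, counts scaled for library size only. Both LY500307 samples were above both vehicle samples, and the vehicle samples lay further apart than the LY500307 samples. The gap between the vehicle samples was 0.40 on the log2 scale. It was larger than that of 98.8% of the 9853 genes with at least 10 CPM, a level that JUN itself did not reach. In edgeR's quasi-likelihood test JUN had a log2 fold change of 0.51 (SE 0.20, 95% interval 0.04 to 0.98), with adjusted p = 0.427 after Benjamini-Hochberg correction over all genes. The call was close to both limits. It was lost with DESeq2, where the log2 fold change was 0.51 and the adjusted p = 0.462, and where 3.07% of all genes met the criteria. It was also lost in edgeR with a correction for GC content (0.42, adjusted p = 0.53), with a correction for gene length (0.48, adjusted p = 0.469) and without vehicle replicate 2 (0.32, adjusted p = 0.986). Over the 13 alternatives the adjusted p of JUN ran from 0.0633 to 0.986.

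JUND, the highest of the FOS and JUN family transcripts per length, had the second smallest p of the 10 genes. Its expression was 161.1 and 161.3 CPM with vehicle and 178.0 and 218.4 CPM with LY500307. The vehicle samples were almost equal, and both LY500307 samples were higher, replicate 2 more so. JUND had a log2 fold change of 0.30 (SE 0.12, 95% interval 0.02 to 0.58, adjusted p = 0.427, edgeR), short of the 0.5 limit. After the GC correction it was 0.07 (adjusted p = 0.757, edgeR), and without LY500307 replicate 2 it was 0.15. Its adjusted p ran from 3.96e-11, without LY500307 replicate 1, where the spread comes from the vehicle samples alone, to 0.986. JUND has the highest exonic GC content of the group, 69.9%. With JUN, it was 1 of 2 among the 10 genes with an unadjusted p below 0.05, where 11.6% of all genes had one, 6.09% with a higher and 5.5% with a lower level.

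JUNB, whose product forms AP-1 with FOS proteins and often opposes JUN, was at 84.5 and 86.2 CPM with vehicle and at 92.1 and 90.1 CPM with LY500307. The groups did not overlap, but the difference was small, with a log2 fold change of 0.09 (95% interval -0.13 to 0.32, adjusted p = 0.679, edgeR) that became -0.05 after the GC correction. The interval excludes a change of 0.5 in either direction. JUNB shares 259 exonic bases with HOOK2 on the opposite strand, and since the strand setting of the counting is not given in the sources used here, reads in this overlap are uncertain.

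**Figure D2:**
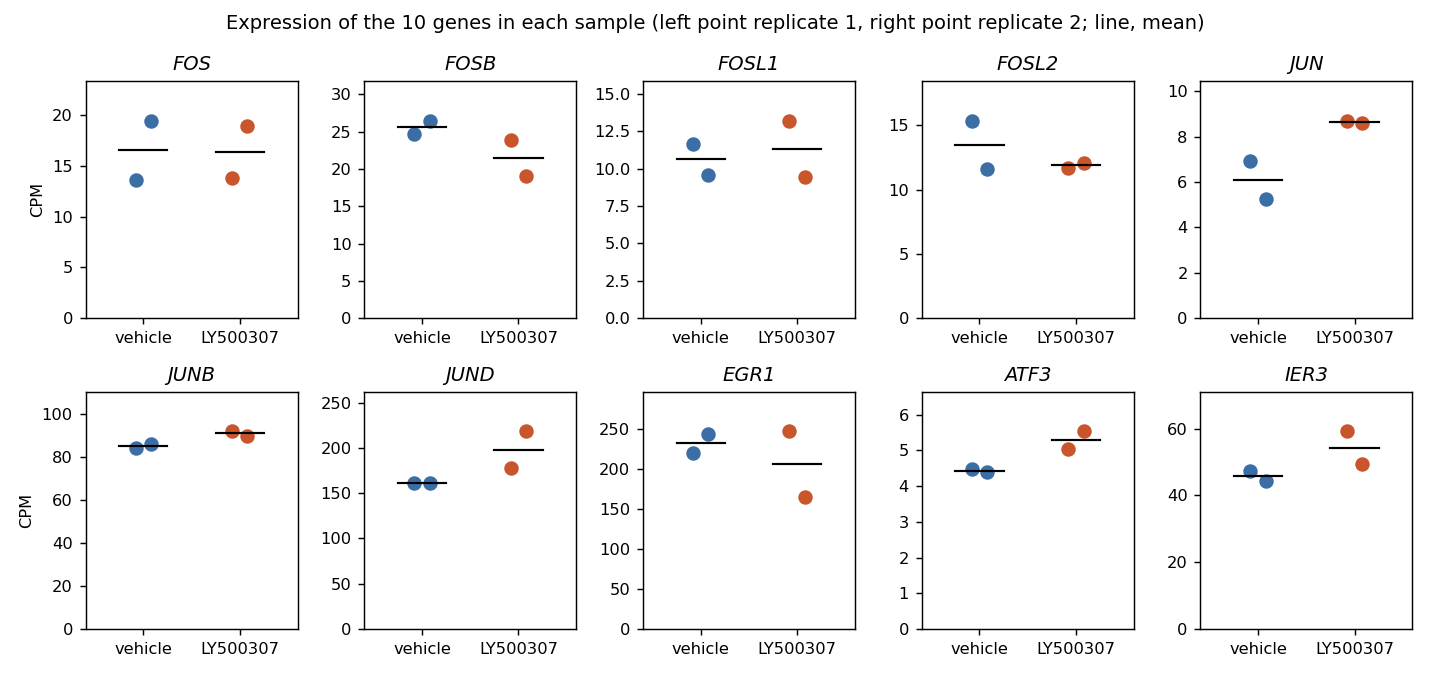
CPM of each gene (vertical axes start at 0) by group, with 1 point per sample and a line at the mean of the group. JUN is separated between groups (5.24 and 6.91 against 8.60 and 8.70 CPM), whereas the points of FOS spread as widely within each group as across them.

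Without a correction the FOS family showed no shared direction, as FOSL1 was positive and the other FOS genes negative. With the GC correction all 4 were negative, from -0.34 for FOSB to -0.000122 for FOSL1, and each 95% interval included 0. FOS had 408 and 553 reads with vehicle and 478 and 612 with LY500307, or 13.6, 19.5, 13.8 and 18.9 CPM. In each group 1 sample was near 14 and the other near 19 CPM, so that the groups overlapped fully. FOS had a log2 fold change of -0.02 (SE 0.22, 95% interval -0.53 to 0.50, adjusted p = 0.98, edgeR), an interval too wide to exclude a change of 0.5 downward. The gap between the vehicle replicates of FOS, 0.52 on the log2 scale, was larger than that of 99.6% of the 9853 genes with at least 10 CPM. The vehicle gaps of FOSL2 (0.41) and FOSL1 (0.28) were larger than those of 99% and 95.5% of these genes.

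FOSB was the only FOS gene whose groups did not overlap, with 24.8 and 26.5 CPM with vehicle and 23.9 and 19.0 CPM with LY500307. The lower values were those of the LY500307 samples, but replicate 1 was close to the vehicle range. Its log2 fold change was -0.26 (95% interval -0.61 to 0.10, adjusted p = 0.496, edgeR). FOSL1, which encodes FRA1 and is tied to invasive growth, had 11.7 and 9.61 CPM with vehicle and 13.2 and 9.47 CPM with LY500307, and the groups overlapped (log2 fold change 0.09, 95% interval -0.39 to 0.58). FOSL2, which encodes FRA2, had 15.4 and 11.6 CPM with vehicle and 11.7 and 12.1 CPM with LY500307. Here too the groups overlapped, and the log2 fold change of -0.18 (95% interval -0.60 to 0.24) rested on vehicle replicate 1, since without that sample it was 0.04.

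EGR1 was the gene on which the LY500307 samples disagreed most. It had 6602 and 6942 reads with vehicle and 8577 and 5342 with LY500307, or 220, 244, 247 and 165 CPM. LY500307 replicate 1 was the highest of the 4 samples and replicate 2 the lowest. EGR1 had a log2 fold change of -0.17 (SE 0.18, 95% interval -0.58 to 0.24, adjusted p = 0.681, edgeR), and it turned to 0.09 without LY500307 replicate 2. The gap between its LY500307 replicates, 0.58 on the log2 scale, exceeded that of 94.4% of genes with at least 10 CPM.

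ATF3 had 134 and 125 reads with vehicle and 175 and 179 with LY500307, or 4.47, 4.40, 5.04 and 5.54 CPM. The groups did not overlap, and the log2 fold change was 0.25 (95% interval -0.22 to 0.73, adjusted p = 0.597, edgeR). IER3 was at 47.3 and 44.3 CPM with vehicle and at 59.2 and 49.4 CPM with LY500307, again without overlap, with a log2 fold change of 0.25 (95% interval -0.05 to 0.54, adjusted p = 0.449, edgeR). IER3 lies in the major histocompatibility region of chromosome 6, from 30710976 to 30712325 on the minus strand of GRCh37. It shares 440 exonic bases with IER3-AS1 and 85 with HCG20, both on the opposite strand. These overlaps make its count uncertain in the same way as that of JUNB.

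**Figure D3:**
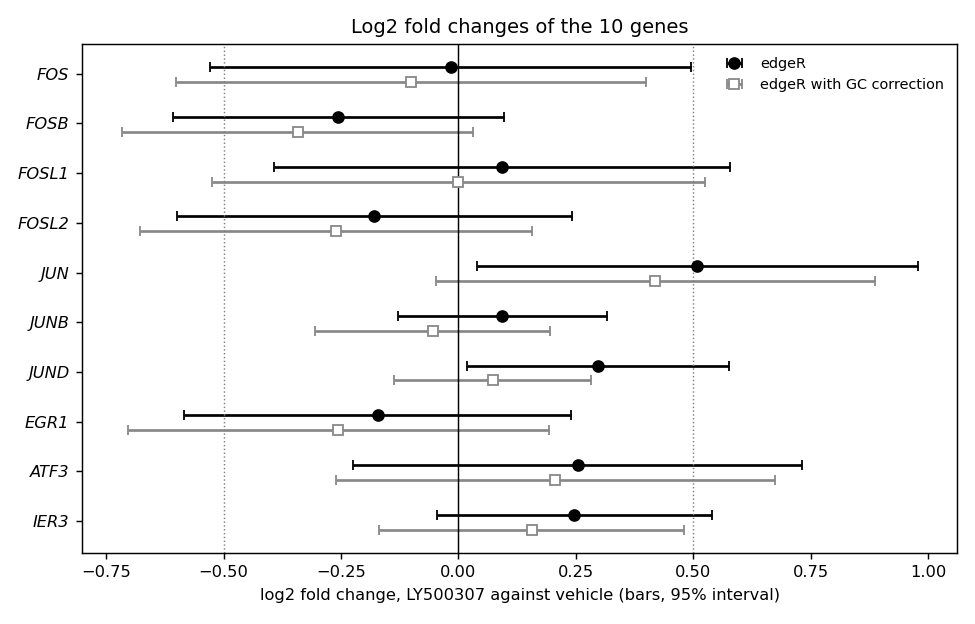
Log2 fold change of each gene with its 95% interval (horizontal axis) from edgeR (black circles) and from edgeR with the GC correction (grey squares), with dotted lines at the 0.5 limits. Only the intervals of JUN (0.04 to 0.98) and JUND (0.02 to 0.58) lie above 0, and both reach below 0 once GC content is corrected for.

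In all, the groups did not overlap for 6 of the 10 genes, 5 of them higher (JUN, JUNB, JUND, ATF3 and IER3) and 1 lower (FOSB) with LY500307. Among all genes 48.6% were separated in this way, 24.2% higher and 24.4% lower. None of the 10 had an adjusted p below 0.05 with edgeR, where this held for 0% of all genes although 1678 had an unadjusted p below 0.05. DESeq2 gave an adjusted p below 0.05 to 0.137% of the genes for which it gave one, 16 in number, and to none of the 10 (lowest adjusted p = 0.414, for JUND). The median log2 fold change of the 10 genes was 0.09, beside 0.00 for all genes tested, and 6 of them were positive, as were 50% of all genes. The smallest two-sided p of an exact permutation test on 1 gene is 0.333 at this sample number, so the p-values given rest on spread estimated across genes. Nothing in the labels says that replicates were separate cultures, so they may measure technical spread alone.

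A feature these genes shared without having been chosen for it was GC content. All 10 had an exonic GC content above 48.0%, the median of the genes tested, from 50.2% in ATF3 to 69.9% in JUND. Across 13775 genes the log2 fold change was higher at higher GC content (Spearman rho 0.33, across genes, which are not independent replicates), as were the ratios of LY500307 replicate 1 (rho 0.25) and replicate 2 (rho 0.33) to the vehicle mean. After the correction 0 of the 10 genes had an unadjusted p below 0.05 with edgeR, beside 9.47% of all genes, 4 were positive, and their median log2 fold change was -0.03. JUN, JUNB and JUND are also single-exon genes in their canonical transcripts, and EGR1 and IER3 have 2 exons. Whether GC content or RNA handling played a part in the differences was not tested.

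**Figure D4:**
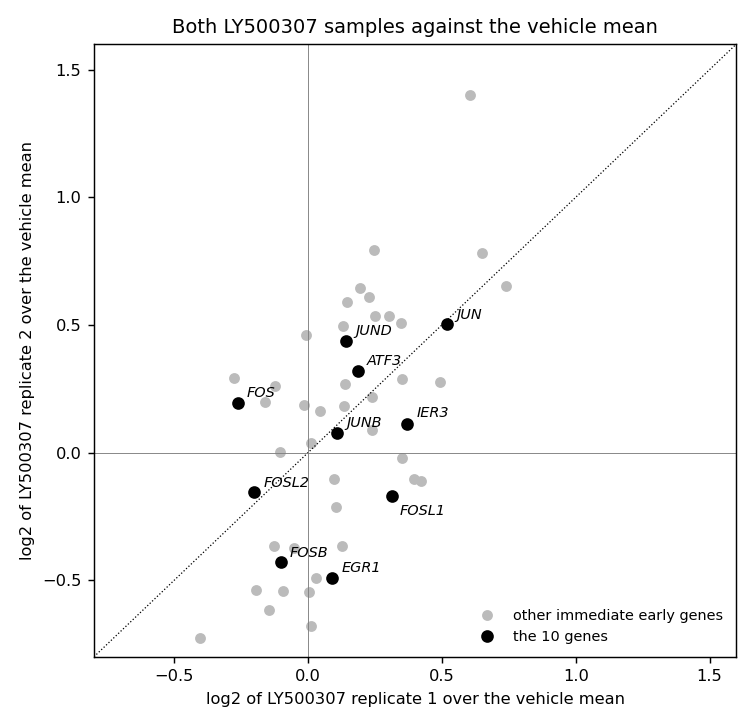
Log2 ratio of LY500307 replicate 1 (horizontal axis) and of replicate 2 (vertical axis) to the vehicle mean, for the 10 genes (black) and 40 other immediate early genes (grey), with a dotted line where both are equal. JUN lies on that line (0.52 and 0.50), whereas FOS (-0.26 and 0.20), FOSL1 (0.31 and -0.17) and EGR1 (0.09 and -0.49) have opposite signs in the 2 samples.

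The replicates shared 1 vehicle mean in these ratios, which are therefore not independent of each other. JUN was 0.52 and 0.50 above the vehicle mean on the log2 scale in LY500307 replicates 1 and 2, the closest pair of the 10. JUND was 0.14 and 0.44 above it, and IER3 was 0.37 and 0.11 above it. FOSB was 0.10 and 0.43 below it, at -0.10 and -0.43.

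By a fixed rule, the genes with the profile most like that of JUN were sought by the Euclidean distance between centred log2 CPM values over the 4 samples, among 9752 genes with at least 10 CPM on none of the lists. They were FAU (distance 0.11), which encodes a ubiquitin-like protein fused to ribosomal protein S30, HLA-DOA (distance 0.13), a modulator of class II antigen loading, and NR6A1 (distance 0.13), an orphan nuclear receptor. FAU was at 99.0 and 78.3 CPM with vehicle and at 119.7 and 129.9 CPM with LY500307. With 4 samples, such likeness is a description only.

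The wider pathway was followed in 5 lists of other genes. Of 40 other immediate early genes, all tested, 2 met the criteria upward (DUSP2 and ID1) and 1 downward (NR4A2). Among all genes tested, 2.76% met them upward and 1.86% downward. An unadjusted p below 0.05 in edgeR was found for 9 of the 40 (22.5%, beside 11.6% of all genes), 7 higher and 2 lower. The median log2 fold change was 0.16. With the GC correction the median was 0.08. An unadjusted p below 0.05 in edgeR was then found for 8 of the 40 (beside 9.47% of all genes), 6 higher and 2 lower. With the replicate block alone it was found for 9 (beside 11.2% of all genes), 7 higher and 2 lower. With the block plus GC correction the median was 0.07, and 2 were higher and 4 lower (beside 9.25% of all genes). DUSP2, a nuclear phosphatase that inactivates MAP kinases, was at 3.54 and 3.52 CPM with vehicle and at 5.36 and 9.31 CPM with LY500307, a log2 fold change of 1.05 ± 0.29 (SE). NR4A2, an orphan nuclear receptor induced by many growth signals, was at 75.6 and 82.0 CPM with vehicle and at 59.6 and 47.7 CPM with LY500307, a log2 fold change of -0.55 ± 0.13 (SE). ID1, an inhibitor of helix-loop-helix factors, had 68 and 62 reads with vehicle and 129 and 113 with LY500307, with a log2 fold change of 0.70 ± 0.25 (SE). In each of these 3 genes the groups did not overlap, and the adjusted p was 0.422 (edgeR). DUSP2 met the criteria in all 13 alternatives run, at 0.61 without LY500307 replicate 2. NR4A2 met them in 11, and lost the call without vehicle replicate 2 (-0.49) and without LY500307 replicate 2 (-0.40). ID1 met them in 7, and kept the call in 1 of the 4 fits that left out a sample, that without LY500307 replicate 2. ZFP36L1, an RNA-binding protein that promotes decay of AU-rich transcripts and the most counted gene of this list, was at 584 and 605 CPM with vehicle and at 607 and 423 CPM with LY500307. Like EGR1, it had its highest value in LY500307 replicate 1 and its lowest in replicate 2.

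Upstream of these genes, the MAP kinases and serum response factor activators were called about as often as all genes. Of 30 genes tested, 1 met the criteria (beside 4.62% of all genes), MAP2K3, a kinase that activates p38, with 12.8 and 16.6 CPM with vehicle and 18.3 and 27.1 CPM with LY500307 (log2 fold change 0.62 ± 0.22, SE). The adjusted p was 0.422 (edgeR), and the call was lost without vehicle replicate 1 (0.45) and without LY500307 replicate 2 (0.32). An unadjusted p below 0.05 was found for 3 of the 30 (10%, beside 11.6% of all genes), and the median log2 fold change was 0.04. FGFR1, the receptor for the bFGF of the medium, was the most counted gene of this list, at 1109 and 1107 CPM with vehicle and 1178 and 1228 CPM with LY500307. The groups did not overlap, but the log2 fold change was only 0.12 (95% interval -0.12 to 0.36).

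The output genes of the ERK pathway, which report its activity, gave 1 call in 17 genes tested, beside 4.62% of all genes, and a median log2 fold change of -0.03. The call was SPRED3, an inhibitor of RAS signalling, with 101 and 86 reads with vehicle and 176 and 205 with LY500307 (log2 fold change 0.83 ± 0.23, SE). Its adjusted p was 0.422 (edgeR), and it met the criteria in all 13 alternatives. DUSP6, the cytoplasmic ERK phosphatase and the most counted gene of the list, was at 1088 and 1082 CPM with vehicle and at 1087 and 891 CPM with LY500307, with a log2 fold change of -0.13 (95% interval -0.43 to 0.16). The other basic leucine zipper partners of AP-1 gave 0 calls by the criteria in 14 genes tested (15 listed), beside 4.62% of all genes, with 2 at an unadjusted p below 0.05 in edgeR (14.3%, beside 11.6% of all genes), both lower, 0 by adjusted p, and a median log2 fold change of -0.01. Their most counted gene, NFE2L1, a stress regulator of proteasome genes, was at 295 and 300 CPM with vehicle and at 322 and 254 CPM with LY500307.

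Genes known as AP-1 targets were followed last. Of 24 listed, 16 passed the filter, and the matrix metalloproteinases MMP1, MMP3, MMP9, MMP10 and MMP13, IL6, IL8 and CCL2, each with at most 12 reads in any sample, did not. The criteria were met by 3 genes, all higher with LY500307, among them PLAU and HMOX1, beside 4.62% of all genes, and 5 of the 16 had an unadjusted p below 0.05 (31.2%, beside 11.6% of all genes, 4 higher and 1 lower). PLAU, the urokinase plasminogen activator, was at 39.4 and 39.7 CPM with vehicle and at 55.8 and 59.4 CPM with LY500307, a log2 fold change of 0.54 ± 0.11 (SE). HMOX1, the heme oxygenase also induced by NRF2, was at 34.7 and 33.9 CPM with vehicle and at 44.9 and 61.4 CPM with LY500307, a log2 fold change of 0.63 ± 0.16 (SE). The groups did not overlap for either gene, and the adjusted p was 0.422 for each (edgeR). GJA1, the most counted gene of the list, which encodes connexin 43, was at 1410 and 1384 CPM with vehicle and at 1384 and 1493 CPM with LY500307. The median of the 16 genes was 0.05, near the 0.00 of all genes, and without LY500307 replicate 2 the number meeting the criteria was 1, with PLAU at 0.50, just short of the limit, and HMOX1 at 0.39. PLAU was also short of the limit with the GC correction (0.46).

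**Figure D5:**
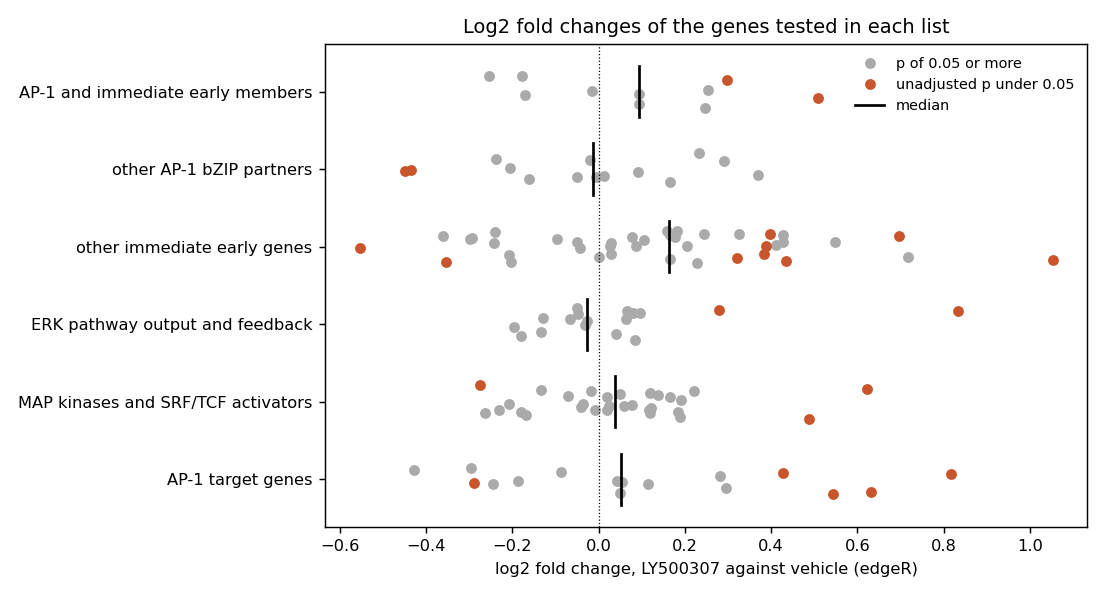
Log2 fold change (horizontal axis, edgeR) of each tested gene in the 10-gene group and the 5 other lists, in orange where the unadjusted p was below 0.05, with a black line at the median of the list. Medians run from -0.03 for ERK pathway output to 0.16 for the other immediate early genes, with DUSP2 (1.05) the highest point and NR4A2 (-0.55) the lowest.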

How the data were processed

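Cells labelled SKOV3 OCSCs were sequenced after treatment with vehicle or LY500307, with 2 samples per group by the sample labels. That they were ALDH+ is stated in the paper's methods. The reads were 50 bp single-end. The submitters' processing notes name bcl2fastq, TopHat2 2.0.8b, HTSeq and hg19, and the values deposited by the authors are raw read counts per gene symbol, without normalization. The paper's methods name stranded mRNA-seq libraries and the labels a total RNA kit. The annotation release and the strand setting are not given in the sources used here. Tally lines for reads outside genes, with 17.3% to 20.5% of tallied reads on no feature, were left out.

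edgeR 4.0.16 under R 4.3.3 was applied to the counts (TMM, filterByExpr, quasi-likelihood test, Benjamini-Hochberg adjustment over all genes tested). The standard error was the absolute log2 fold change divided by the square root of F, and intervals used the degrees of freedom of that test. RPKM divides TMM-scaled CPM by the length of the canonical GENCODE v44lift37 transcript. Exonic GC content and length came from the same annotation on GRCh37, to which 91.6% of symbols were matched (95.2% of genes tested), 2134 by an older symbol, and were corrected with a loess curve (span 0.3, prior count 2) per sample. Promoters came from the RefSeq table, where FOSL1 and IER3 had no entry and ATF3 had 2. For the share over all promoters, the first entry of each gene was used. The alternatives were DESeq2 1.42.0, its size factors, library totals, other filters (no filter, mean count of at least 10), both corrections, a replicate block with and without the GC correction, and each sample left out.

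The 10 genes, the other lists and the alternatives were chosen with earlier results of these data known. Besides the 10 genes, the text names in each list the genes meeting the criteria (at most 5) and the most counted gene. ESR2 was added after the values had been seen. In the list of AP-1 targets 1 gene meeting the criteria is not reported here. The depth of 28841701 to 34943882 counts per sample gave from 125 reads (ATF3) to 8577 reads (EGR1) per sample for the 10 genes.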

Additional observations from a re-analysis of the deposited data

How the results depend on the processing

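Of the 10 genes, the number meeting the criteria was 1, and 0 with DESeq2, with the GC correction, with the gene length correction and with the replicate block plus GC correction. It ranged from 0 (without vehicle replicate 2) to 1 with 1 sample left out. The median log2 fold change of the 10 genes, 0.09, turned to -0.0275 with the GC correction, -0.0203 with the gene length correction and -0.0388 with the block plus GC correction. JUNB turned to -0.0548, -0.0247 and -0.0585 and FOSL1 to -0.000122, -0.0159 and -0.0190 in the same 3 settings, and FOS to 0.0274 with library totals. JUN, JUND, FOSB, ATF3 and IER3 kept their direction in all 13 alternatives. Leaving out 1 sample gave ranges that cross 0 for FOS (-0.26 to 0.26), FOSL1 (-0.17 to 0.31), FOSL2 (-0.37 to 0.0410), EGR1 (-0.49 to 0.0918), ZFP36L1 (-0.49 to 0.0318), DUSP6 (-0.28 to 0.00408), GJA1 (-0.0118 to 0.0987) and NFE2L1 (-0.23 to 0.11). Where 1 group is left with 1 sample, that sample is assumed to vary like the other group. The count of all genes meeting the criteria, 669 with all samples, was 352 when LY500307 replicate 2 was left out and 1987 when replicate 1 was, and that of the 5 other lists, 8 with all samples, was 4 and 20 in the same fits. The p-values of these fits rest on the vehicle spread alone.

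Same-numbered samples did not deviate together (correlation -0.07 of their deviations from the group means). With 2 samples per group this cannot show whether same-numbered samples were handled together, which was not tested. With the replicate block JUN had a log2 fold change of 0.52 (adjusted p = 0.411, edgeR) and JUND of 0.29 (adjusted p = 0.474, edgeR), 1 of the 10 genes met the criteria, and 717 genes met them in all. For all of these shifts the cause was not tested. Depth limits most the genes with few reads, such as JUN (149 to 302 per sample) and DUSP2 and ID1 (62 to 301 per sample).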
